A study of Mus musculus with 4 samples.

Results

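The landmark genes of the hippocampal fields and of the thalamus are 10 genes whose transcripts are used to tell these neighbouring regions apart. They were chosen by symbol, and the rule itself uses no measured value: Wfs1, Man1a, Pou3f1 and Neurod6 for CA1, Pcp4 and Rgs14 for CA2 and CA3, Prox1 for the dentate gyrus, and Tcf7l2, Lef1 and Prkcd for the thalamus. Every probe set that the array's annotation gives to 1 of these symbols and to no other was taken, which made 14 probe sets of 12422 on the array (10 genes of 8251). The 14 fall into 5 for CA1, 2 for CA2 and CA3, 1 for the dentate gyrus and 6 for the thalamus.

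Total RNA of area CA1 was measured on 4 Affymetrix mouse arrays, 1 per sample. All 4 samples came from young male C57BL/6J mice, an inbred strain, that were handled by the experimenter and given nothing else. They are controls of an experiment in which other mice were shocked, and their RNA was taken 1, 2, 4 and 6 hours after the last shock of those mice. No shocked mouse was analysed here, and nothing in the labels tells if a sample is 1 animal or a pool, so time, animal, dissection and array cannot be told apart.

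The hippocampus passes signals from the granule cells of the dentate gyrus to the pyramidal cells of CA3 and on to those of CA1, with the small field CA2 between the last 2 fields. Each field keeps its own set of transcription factors and signalling proteins, and the thalamus, which lies directly beneath the dorsal hippocampus, has another. A piece of tissue cut as CA1 can carry some of its neighbours along, so transcripts of those neighbours bear on how alike the pieces were. In RNA from whole tissue, fewer cells of a type and less RNA per cell cannot be told apart.

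Signals are given as deposited, on a linear scale, in the order of the 1-, 2-, 4- and 6-hour samples. Differences, ranges and SDs are on the log2 scale after the arrays had been brought to 1 common distribution and values below a floor of 35.1 had been set to it. A probe set was tested only if its mean on the log2 scale reached that of a signal of 104.6, the 40th percentile. Probes differ in how well they bind, so no probe set's signal was set against that of another, except to call the 2 probe sets of a gene brighter and dimmer. The summed signals of gene lists add the deposited signals of different probe sets, so the brightest ones weigh most in them.

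The 1-hour sample stood apart in 1 of 2 controls of RNA quality. Control probes for the glycolytic enzyme Gapdh gave a 3′ signal over a 5′ signal of 4.52, 1.18, 1.37 and 1.20, by far the highest in the 1-hour sample. The same ratio for beta-actin, of the cytoskeleton, was 2.34, 2.00, 1.80 and 1.76, also highest in the 1-hour sample but close to that of the 2-hour sample. Ranges of landmarks and medians of regions that moved by over 1.5 times without the 1-hour sample are given with and without it.

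Of the 14 landmark probe sets, 11 lay above the floor in all 4 samples and 10, from 8 genes, reached the level for tests. Of all 12422 probe sets on the array, 7453 reached that level. All 5 CA1 probe sets and 5 of 6 thalamic ones were above the floor in every sample, against 1 of 2 for CA2 and CA3 and 0 of 1 for the dentate gyrus. The share of all probe sets above the floor in every sample was not counted. Counts above the floor, here and in the lists below, therefore do not show which tissues were present, and this was not tested.

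**Figure D1:**
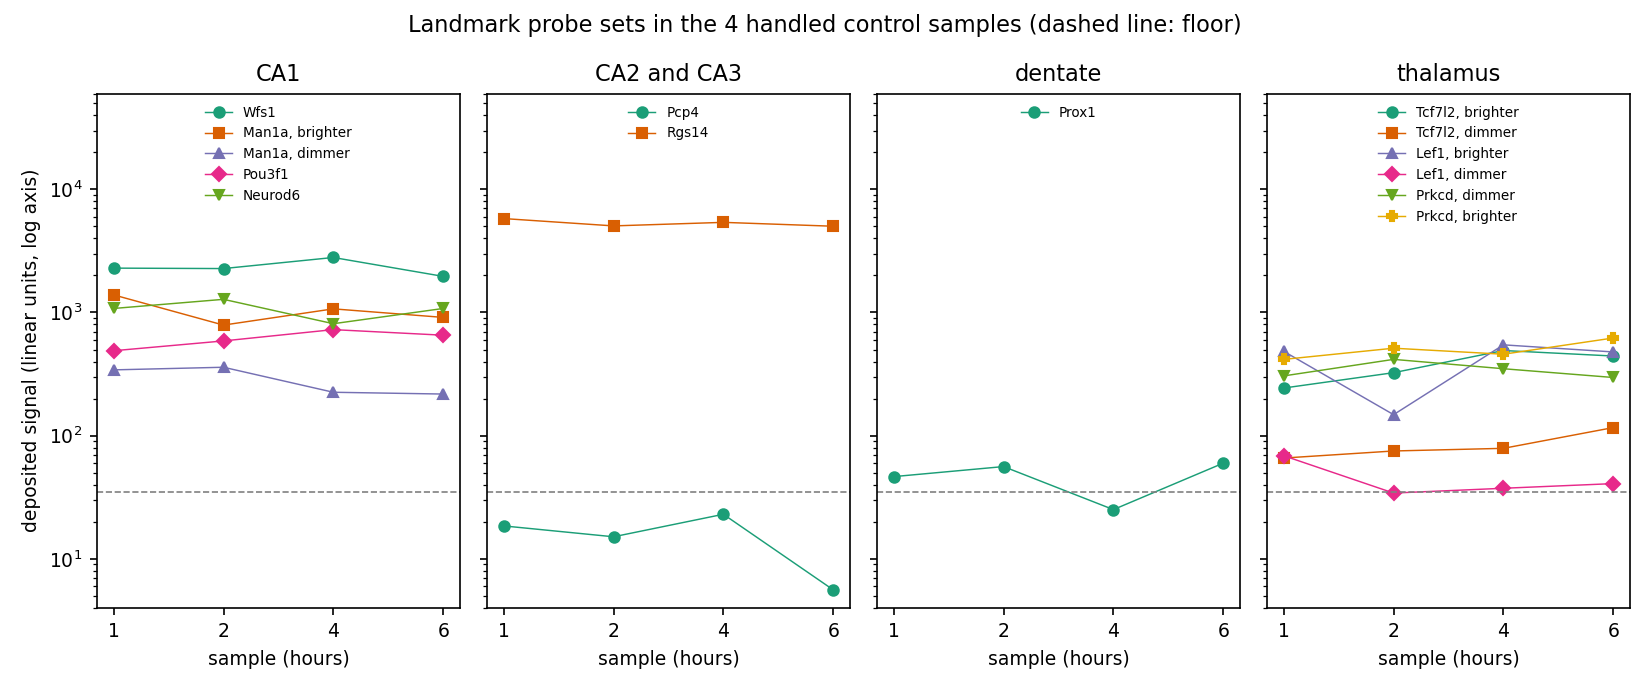
Deposited signal (linear units on a log axis) of each landmark probe set in the 1-, 2-, 4- and 6-hour samples, in a panel per region; points are single samples, lines join the values of 1 probe set, and the dashed line is the floor of 35.1. The CA1 probe sets and Rgs14 stay well above the floor, Pcp4 lies below it throughout, and the brighter Lef1 probe set drops to 148 in the 2-hour sample.

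Among the CA1 landmarks, Wfs1, which encodes the endoplasmic reticulum membrane protein wolframin, had signals of 2292, 2274, 2797 and 1964. Its highest and lowest samples, at 4 and 6 hours, lay 0.48 apart on the log2 scale (SD 0.20, n = 4). Pou3f1, a POU-domain transcription factor, had 489, 588, 726 and 654, lowest in the 1-hour sample (range 0.53, SD 0.23, n = 4, and a range of 0.33 without that sample). Neurod6, a basic helix-loop-helix transcription factor of pyramidal neurons, had 1078, 1279, 811 and 1078 (range 0.65, SD 0.27, n = 4). These 3 genes did not share a pattern: the 4-hour sample was the highest for Wfs1 and Pou3f1 and the lowest for Neurod6.

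Man1a, a mannosidase that trims N-linked glycans in the Golgi, was measured by 2 probe sets. The brighter one had 1389.7, 790.2, 1071 and 912, highest in the 1-hour sample and lowest in the 2-hour sample (range 0.84, SD 0.36, n = 4). Without the 1-hour sample its range was 0.46. The dimmer one had 342, 359, 225 and 218, with the 1- and 2-hour samples above the 4- and 6-hour samples (range 0.70, SD 0.38, n = 4). In the 2-hour sample the brighter probe set lay at -0.50 from the mean of the other 3 (their SD 0.32), and the dimmer one at 0.45 (their SD 0.38). The 2 probe sets of this gene thus disagree on where the 2-hour sample stands.

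Rgs14, a regulator of G protein signalling that is enriched in CA2 pyramidal neurons, had the smallest range of the tested landmarks. Its signals were 5790.3, 5048, 5394 and 5017. After normalization they lay within 0.13 on the log2 scale (SD 0.06, n = 4), and 97.7% of the 7453 tested probe sets had a range at least as large. Without the 1-hour sample, its highest, the range was 0.08. This small range depended on the normalization: over all 4 samples it was 0.21 on the values as deposited and 0.27 with the arrays scaled to equal medians. Pcp4, a calmodulin-binding peptide found in CA2 neurons and in Purkinje cells, had 18.5, 15.1, 23 and 5.6, below the floor in all 4 samples. A floor value is only an upper bound, so no order was read from it. A second probe set, whose annotation lists Pcp4 together with Igsf5, had 1976, 1808, 1688 and 1820.1. It cannot be named for either gene and was left out of all counts.

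Prox1, the homeobox factor that granule neurons of the dentate gyrus need to keep their identity, had 46.5, 56.1, 25.1 and 59.8. It was above the floor in the 1-, 2- and 6-hour samples and below it in the 4-hour sample, and its mean missed the level for tests. No difference between the samples was read from so dim a signal.

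Of the thalamic landmarks, Tcf7l2 and Lef1 are DNA-binding partners of beta-catenin in Wnt signalling, and both continue to be expressed in thalamic neurons of the adult. The brighter Tcf7l2 probe set had 244, 325, 491 and 443, with the 4- and 6-hour samples above the 1- and 2-hour samples (range 0.97, SD 0.44, n = 4). The dimmer one, below the level for tests, had 65.8, 75.1, 78.9 and 116, and was also lowest in the 1-hour and next lowest in the 2-hour sample (range 0.84). The 1-hour sample lay below the other 3 in both, with differences of -0.71 in the brighter probe set (SD of the other 3, 0.33) and -0.43 in the dimmer one (SD 0.37). These low values stand beside the 1-hour Gapdh ratio of 4.52 and beta-actin ratio of 2.34, whose part in them was not tested, and without that sample the range of the brighter probe set was 0.63. The names of both probe sets carry a suffix (f and s) that the maker gives to probes which can be shared with related sequences, and whether other transcripts added to these signals was not tested.

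Lef1 was the landmark with the widest range. Its brighter probe set had 484, 148, 546 and 478. The 2-hour sample stood alone: it lay at -1.81 from the mean of the other 3, whose SD was 0.11, a range of 1.93 or 3.81-fold. That sample had the lowest Gapdh ratio, 1.18, and the second highest beta-actin ratio, 2.00, whose part in the low value was not tested. The range was also 1.93 without the 1-hour sample. The dimmer Lef1 probe set, designed on the same sequence, had 68.7, 34.2, 37.4 and 40.8 (range 0.97, and 0.27 without the 1-hour sample). Its lowest value was also that of the 2-hour sample, which was at the floor after normalization, but the 4- and 6-hour samples were close to the floor too and only the 1-hour sample stood clear of it.

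Prkcd, the delta form of protein kinase C and a mark of sensory thalamic relay neurons, also had 2 probe sets. The dimmer one had 306, 416, 349.5 and 297, highest in the 2-hour sample (range 0.48, SD 0.21, n = 4). The brighter one had 416, 513, 458 and 621, highest in the 6-hour sample (range 0.53, SD 0.23, n = 4). In the 6-hour sample they lay on opposite sides of the other 3, the dimmer at -0.28 (SD of the other 3, 0.20) and the brighter at 0.41 (SD 0.12). The brighter one also carries the suffix s of shared probes.

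**Figure D2:**
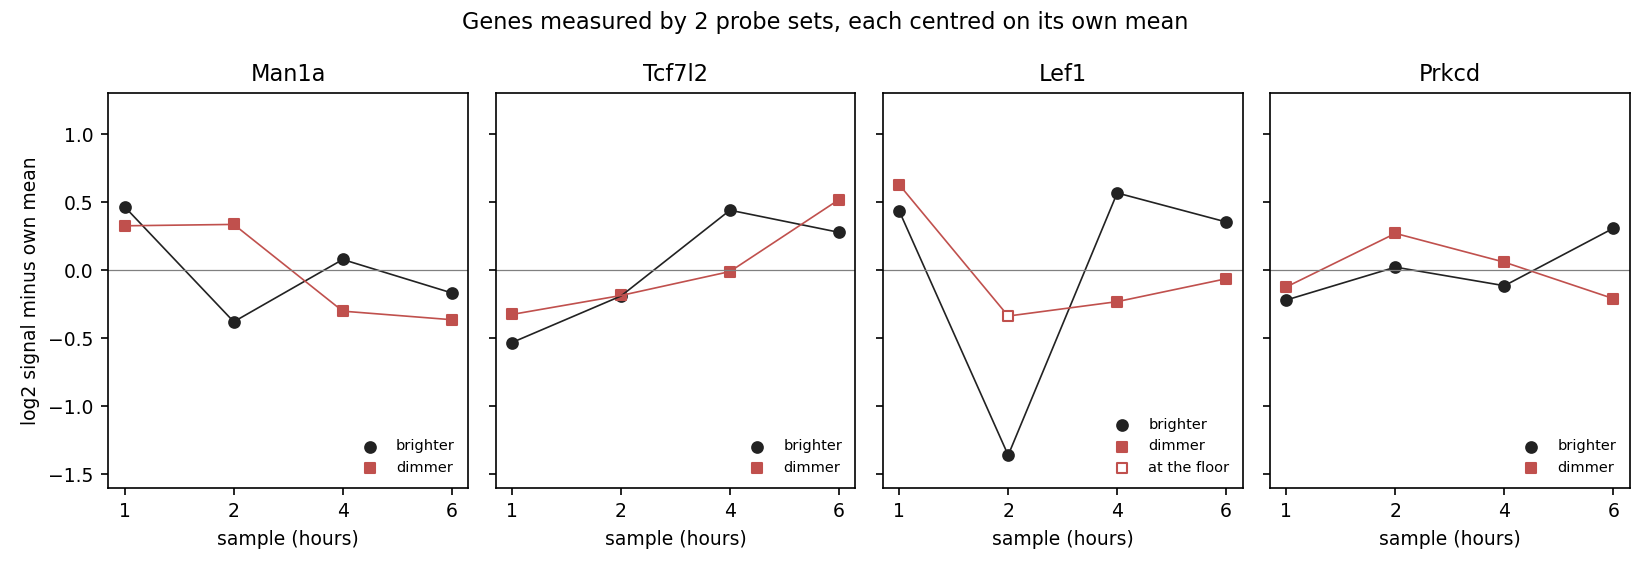
Log2 signal of each probe set minus its own mean over the 4 samples, for the genes with 2 probe sets; black circles are the brighter and red squares the dimmer probe set, and an open symbol is a value at the floor. The 2 Man1a probe sets part in the 2-hour sample and the 2 Prkcd probe sets in the 6-hour sample, while both Tcf7l2 probe sets are lowest at 1 hour and both Lef1 probe sets lowest at 2 hours.

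The spread of the landmarks was set against that of the whole array. The brighter Lef1 probe set was the 1 of 10 tested landmark probe sets with a range of 2-fold or more over the 4 samples, against 17.9% of all 7453 tested probe sets, so the landmarks' share was near the background. Without the 1-hour sample the same probe set was the 1 of 10, against 9.04% of all. The median range was 0.59 over the tested landmarks and 0.56 over all tested probe sets, and without the 1-hour sample 0.48 and 0.37.

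A range as large as that of Lef1 was seen in 3.53% of tested probe sets, and in 1.01% of those in the same of 5 equal classes of mean level. For the brighter Tcf7l2 probe set, whose range of 1.96-fold lay just under the limit, these shares were 19.0% and 12.8%. For Wfs1 they were 60.0% and 33.5%. Without the 1-hour sample, the shares of all tested probe sets were 1.48% for Lef1, 23.6% for Tcf7l2 and 36.9% for Wfs1. Lef1 thus varied more than most probe sets of like level, while Wfs1 and Tcf7l2 did not stand apart.

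**Figure D3:**
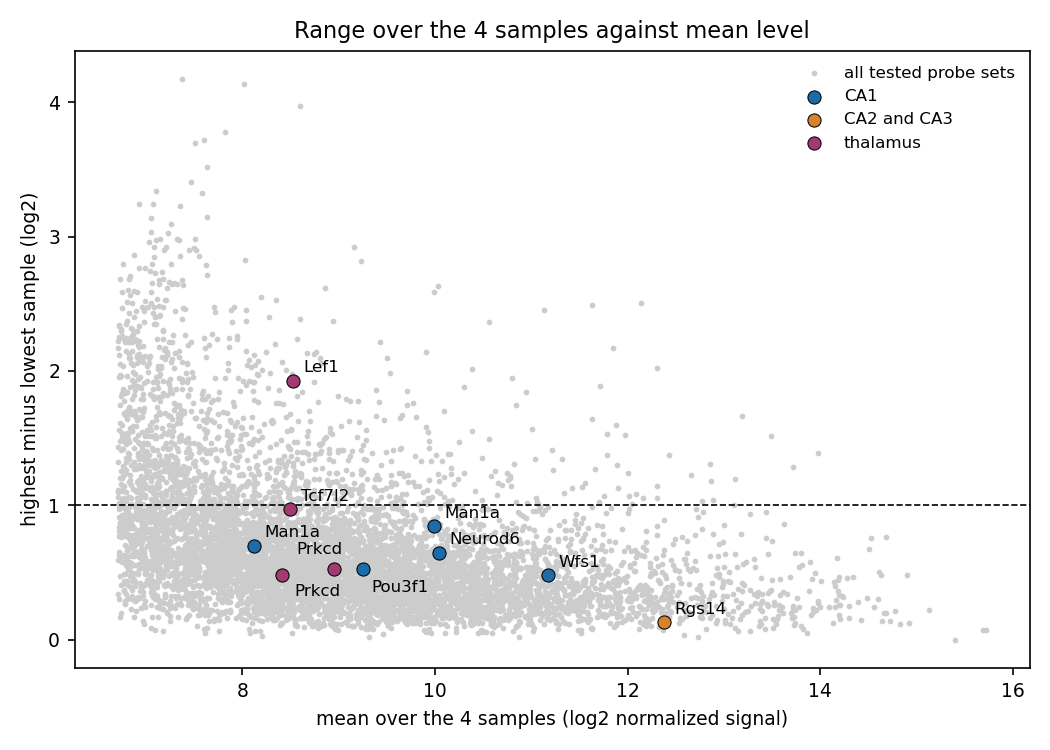
Range over the 4 samples (log2, highest minus lowest) against the mean log2 normalized signal, for all 7453 tested probe sets in grey and the 10 tested landmark probe sets in colour by region; the dashed line marks 2-fold. Lef1 at 1.93 is the only landmark above the line, and Rgs14 at 0.13 lies near the bottom of its level.

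By region, the 5 CA1 probe sets were divided in every sample. In the 4-hour sample 3 were higher and 2 lower than the mean of the other samples, with a median of 0.11, and in the 6-hour sample 2 were higher and 3 lower, with a median of -0.22. In the 1- and 2-hour samples 3 and 2 of the 5 were higher. With the 1-hour sample left out, the medians of the 4- and 6-hour samples were 0.25 and -0.02. The medians over all tested probe sets lay between 0.00 and 0.05.

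The 4 tested thalamic probe sets, from 3 genes, had medians of -0.23, -0.11, 0.33 and 0.39 in the order of hours. In the last 2 samples 3 of the 4 were higher, though not the same 3: the exception was the brighter Prkcd probe set at 4 hours and the dimmer one at 6 hours. With the 1-hour sample left out, the medians of the 2-, 4- and 6-hour samples were -0.31, 0.21 and 0.25. Probe sets of 1 gene are not independent, and a difference between the thalamic and the CA1 landmarks was not tested.

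Single samples rarely lay 2-fold from the rest at any landmark. Over all tested probe sets, 1.78%, 1.27%, 1.07% and 1.49% exceeded the mean of the remaining samples by 2-fold or more in the 1-, 2-, 4- and 6-hour samples, and 4.56%, 1.72%, 1.93% and 1.61% as far below. Of the 10 landmark probe sets, 0 lay so far above in any sample and 1 lay so far below, Lef1 in the 2-hour sample. The other 9 stayed within 2-fold of the mean of the remaining samples in each sample.

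**Figure D4:**
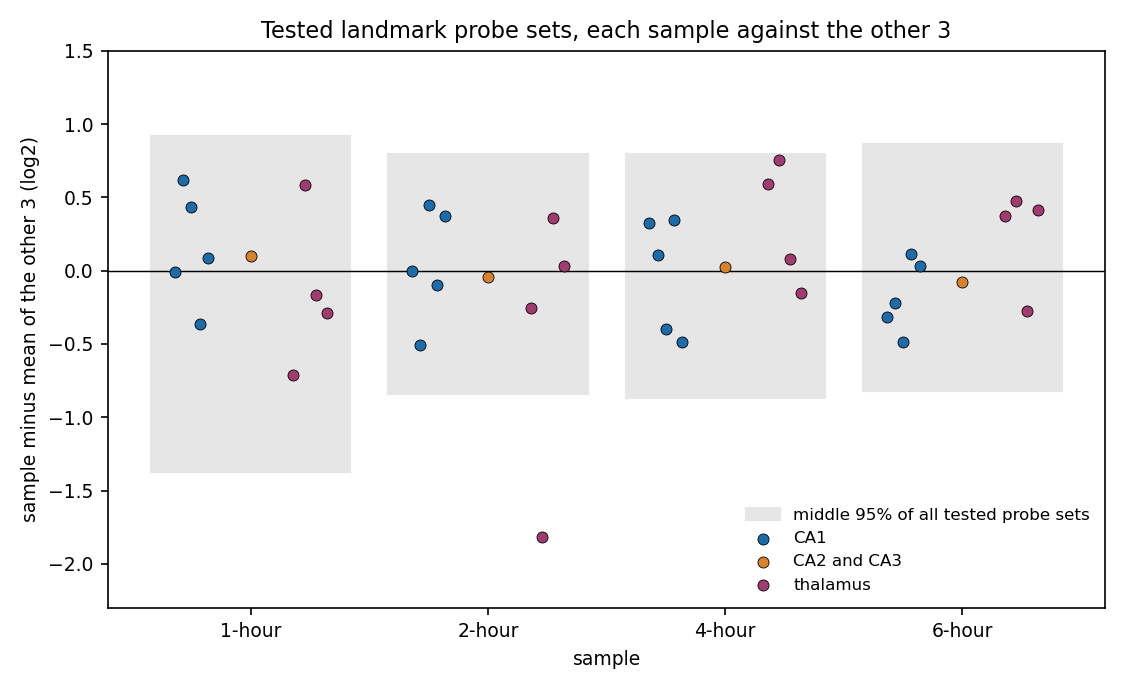
Difference of each sample from the mean of the other 3 (log2) for the 10 tested landmark probe sets, coloured by region, with the middle 95% of all tested probe sets as a grey band. The lone point below the band is Lef1 at -1.81 in the 2-hour sample; the CA1 points lie on both sides of 0 in every sample.

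The 1 comparison that the labels allow is a trend over the time at which RNA was taken. It was fitted with limma as a linear change from 1 to 6 hours across all tested probe sets, with Benjamini-Hochberg adjustment. The labels do not tie the samples to separate animals, so its p-values measure only the spread between these samples. No probe set on the array passed an adjusted p of 0.05 (0 of 7453, or 0%), no landmark did (0 of 10), and the smallest adjusted p was 0.74. At an unadjusted p under 0.05 there were 465 probe sets (6.24%), 1 of them a landmark.

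That landmark was the brighter Tcf7l2 probe set, with a fitted change of 0.86 (SE 0.35, unadjusted p = 0.042, adjusted p = 0.74, limma). Without the 1-hour sample the fitted change was 0.59 (adjusted p = 1, limma). Its 4 samples did not follow the hours strictly, since the 4-hour value was above the 6-hour value. The dimmer Man1a probe set had a fitted change of -0.81 (SE 0.34, adjusted p = 0.74, limma), and the brighter one -0.33 (SE 0.36, adjusted p = 0.85, limma), or 0.27 without the 1-hour sample. For Lef1 the fitted change was 0.72 with an SE of 0.78, and without the 2-hour sample it was -0.06.

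Of the 10 fitted changes 4 were positive and 6 negative. The 95% interval reached 0.42 to either side of the estimate for Rgs14, the narrowest, and 1.83 for Lef1, the widest. Linear changes within these widths were not detectable with 4 arrays.

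**Figure D5:**
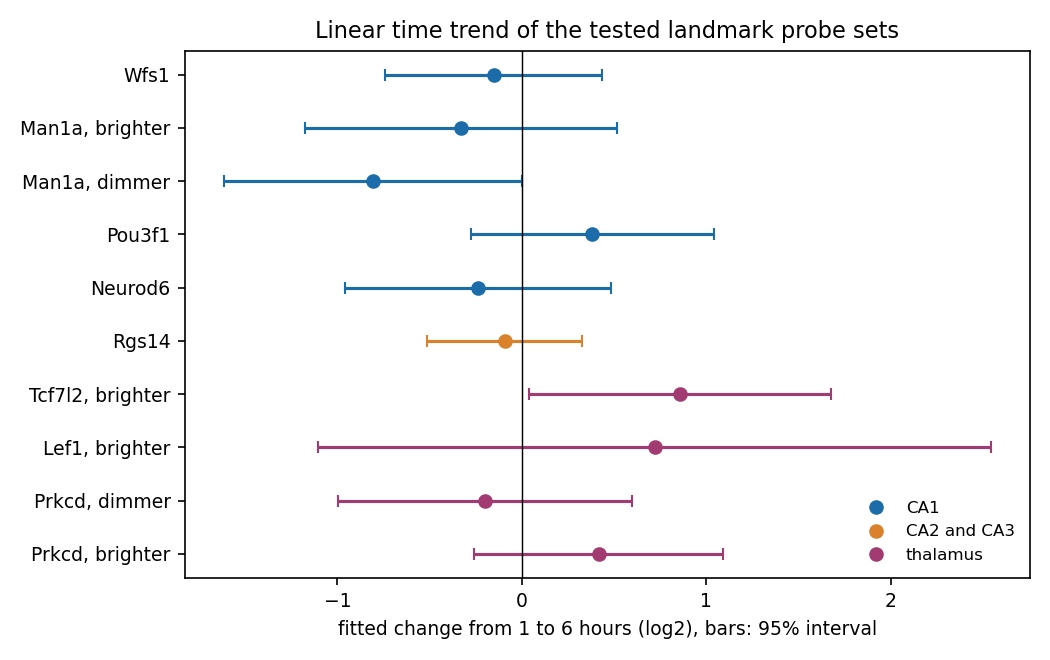
Fitted linear change from 1 to 6 hours (log2, points) with its 95% interval (bars) from limma for the 10 tested landmark probe sets, coloured by region. The interval of the brighter Tcf7l2 probe set, centred on 0.86, lies just above 0 before adjustment for 7453 tests; the other 9 intervals include 0.

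The labelled tissue and its neighbours were checked with wider lists of region genes, each gene entering by its brightest probe set. Of 9 genes listed for CA1 the 4 landmarks had a usable probe set, and all 4 were above the floor in every sample. Of 7 genes listed for CA2 the 2 landmarks were present, and of 4 listed for CA3 2 were present and 1 was tested. That was Bok, a member of the Bcl-2 family, with 845, 787, 645 and 775, highest in the 1-hour sample (range 0.40, and 0.27 without that sample). Of 8 genes listed for the dentate gyrus 6 were present, 4 were above the floor in every sample and 2 were tested. Dsp, the desmosomal protein desmoplakin of granule neurons, had 175, 330.0, 185 and 225, highest in the 2-hour sample, and Lct, the gene of lactase, had 355, 405, 308 and 282. The summed signal of the dentate list was 659, 1074, 791 and 832, lowest in the 1-hour sample.

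Genes listed for the neocortex, which lies above the dorsal hippocampus, were also measured. Of 7 listed, 4 were present and 3 were tested and above the floor in every sample. Fezf2, a zinc finger transcription factor of deep-layer projection neurons, had 1732, 1642, 2022 and 1691. Tbr1, a T-box factor of glutamatergic cortical neurons, had 1176, 818, 982 and 1094. Ccn2, a secreted matrix protein, had 217, 202, 250 and 166. The ranges of these 3 genes lay between 0.26 and 0.59. The summed neocortical signal was 3140, 2699, 3285 and 2974, lowest in the 2-hour sample. Whether these signals came from neocortical tissue or from the labelled CA1 was not tested.

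Of 11 genes listed for the thalamus 8 were present and 6 were tested. Lef1 and Rora, 2 of these 6, had a range of 2-fold or more, against 17.9% of all tested probe sets, and without the 1-hour sample only Lef1 did, against 9.04%. Rora, a nuclear receptor, had 60.9, 195, 225 and 206, lowest by far in the 1-hour sample, and its range of 1.90 was 0.25 without that sample. Gbx2, a homeobox gene of the developing thalamus, was below the floor in all 4 samples. The summed thalamic signal was 1774, 1725, 2344 and 2425, so the 4- and 6-hour samples were above the 1- and 2-hour samples. By their brightest probe sets, all 6 tested genes were higher in the 6-hour sample than the mean of the other 3 (median 0.44), and 5 of 6 were higher when the 1-hour sample was left out (median 0.32). The dimmer probe sets of 2 of these genes lay on the other side, that of Prkcd at -0.28 and that of Lef1 at -0.08. The dimmer Lef1 probe set was below the level for tests. Ramp3, above the floor in every sample but below the level for tests, had 143.5, 58.4, 100.2 and 58.4. It lay at -0.67 in the 6-hour sample. No gene of the 6 region lists passed the trend test in either direction (0 of 17 tested), beside 0% of all tested probe sets.

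Tcf7l2 is also made by oligodendrocytes and their precursors, and Lef1 by endothelial cells of the brain. Of 6 oligodendrocyte genes 5 were present, with summed signals of 20116, 17471, 20355 and 22235, and Cnp was below the floor in all samples. Their profiles differed. Mag, the myelin-associated glycoprotein, had 487, 958, 1285 and 1478, lowest in the 1-hour sample (range 1.55, and 0.64 without that sample). Mog, the myelin oligodendrocyte glycoprotein, had 558.5, 423.5, 272 and 558.5, lowest in the 4-hour sample. The brighter probe set of Mbp, the myelin basic protein, had 7347, 7892, 9392 and 9529, with the 4- and 6-hour samples above the 1- and 2-hour samples. The dimmer one, also tested, had 657, 839, 617 and 607, with the 4- and 6-hour samples below the 1- and 2-hour samples. All 4 endothelial genes were present, with summed signals of 1847, 1354, 1202 and 938. Among them, Vwf, the von Willebrand factor, had 163, 281, 275 and 99.6. Eng, the TGF-beta co-receptor endoglin, had 1376, 790, 764 and 619, highest in the 1-hour sample (range 1.18, and 0.35 without that sample). Pecam1, an endothelial adhesion molecule, had 178, 160, 30.9 and 155. The part of these cells in the Tcf7l2 and Lef1 signals was not tested.

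Genes of the other cell types varied too. Of 6 neuronal genes, all tested, 3 had a range of 2-fold or more, against 17.9% of all tested probe sets, and without the 1-hour sample 1 did, against 9.04%. The widest was Map2, a microtubule-associated protein of dendrites, with 25.4, 338, 103 and 268, below the floor in the 1-hour sample (range 3.24, and 1.65 without that sample). Syt1 and Syp, proteins of synaptic vesicles, had 1092, 2216, 1592 and 2451.5 for Syt1 and 618, 1186, 716.5 and 1271 for Syp. Both were lowest in the 1-hour sample and next lowest in the 4-hour sample. In the 1-hour sample 4 of the 6 neuronal genes lay below the mean of the other 3 samples and 2 above it. Those above were Nefm, at 0.59, and Snap25, at 0.00. Over all tested probe sets 54.7% lay above. Nefm had 221, 147.5, 184 and 125, highest in the 1-hour sample. Of 3 tested microglial genes, the complement genes C1qa and C1qb had 986, 1407, 1784 and 1556 for C1qa and 514, 773, 1062 and 804 for C1qb. By these brightest probe sets both were lowest in the 1-hour and highest in the 4-hour sample. The dimmer C1qb probe set, also tested, had 141, 272, 161 and 167, highest in the 2-hour sample. Aif1, above the floor in every sample but below the level for tests, had 171, 69.8, 45.6 and 117, highest in the 1-hour and lowest in the 4-hour sample. Csf1r, a receptor of microglia, had 1701, 1487, 1820.3 and 1386. The summed signals of the neuronal list were 25738.5, 28814, 25978 and 29228, and those of the microglial list were 3372, 3737, 4712 and 3862. The part of these differences in the landmark values was not tested. No gene of the 6 cell type lists passed the trend test (0 of 24 tested).

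Over the 4 samples, the profile of the brighter Lef1 probe set was most like those of Pcsk5, a proprotein convertase, and Tfap2a, an AP-2 transcription factor, among 6741 other tested probe sets with 1 symbol. Their centred log2 values differed from those of Lef1 by a root mean square of 0.05 for each. Pcsk5 had 154, 44.9, 151 and 139.5, and Tfap2a had 152, 49.7, 169 and 148, so both were lowest in the 2-hour sample. With 4 values a likeness of this kind is a description only.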

How the data were processed

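The deposited table holds 1 intensity per probe set and array on a linear scale, for 4 arrays. From the deposited values, the arrays were already on 1 scale (mean 500.3 in each after trimming 2% at each end). The software, the build and any detection calls: not given in the sources used here. Probe sets were named from the platform's annotation table, updated by gene identifier to the RefSeq table of GRCm38.p6. Of 12422 probe sets, besides 66 controls, 10833 had 1 symbol, 396 several and 1193 none. The landmark genes and the 12 marker lists were chosen with earlier results of these data known.

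Intensities were quantile normalized, floored at the 20th percentile and put on the log2 scale, and 7453 probe sets with a mean at or above the 40th percentile were tested with limma 3.58.1 in R 4.3.3 (linear time term, eBayes with an intensity trend, 2 residual degrees of freedom, two-sided). The fit was tested on simulated data. The number of arrays limits the precision. Named genes are all landmarks, the list genes with the largest range (up to 3 per list, a gene entering by its brightest probe set), and the 2 probe sets most like a landmark with a 2-fold range. Gbx2, Cnp, Ramp3, Aif1, Nefm, Snap25, Folr1 and Kl were named after their values were seen. The dimmer probe sets of Mbp, Gfap and C1qb and the probe sets of Mobp were also added after their values were seen. Alternatives were 2 other normalizations, a floor at the 40th percentile, log2(value + 16) with no floor, no filter, each sample left out, time on a log2 scale and a prior without an intensity trend. Figures were drawn with matplotlib 3.10.9.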

Additional observations from a re-analysis of the deposited data

Results flagged for a closer look

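In 50 profiles examined over the 4 samples (landmark probe sets, named list genes and summed lists), 4 (8%) had 1 sample far from the others. In each, the gap to the nearest sample was over the critical share of the whole range in Dixon's test. The list genes were picked for a wide range in these same samples and the sums contain them, so no chance rate applies to this share. Lef1 had 148.1 in the 2-hour sample, against 478 to 546 elsewhere. Rora had 60.9 in the 1-hour sample, against 195 to 225 in the others. The brighter probe set of Gfap, the astrocyte filament protein, had 2283 in the 1-hour sample, against 1632 to 1715 in the others. The dimmer Gfap probe set, also tested, had 278, 321, 294 and 347, lowest in the 1-hour sample, so the 2 disagree. Pecam1 had 30.9 in the 4-hour sample, below the floor, against 155 to 178 in the others. No cause was tested for any of them.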

How the results depend on the processing

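No paired analysis was possible because there is 1 group. Of 110 landmark trends under alternative settings 0 passed the threshold (smallest adjusted p 0.38, limma) and 4 turned their direction, each on leaving out 1 sample. With each sample left out in turn, the fitted change ranged from -0.64 to 0.27 for Man1a (brighter probe set, positive without the 1-hour sample), from -0.057 to 2.17 for Lef1 (negative without the 2-hour sample), from -0.29 to 0.45 for Wfs1 and from -0.60 to 0.18 for Prkcd (dimmer probe set), the last 2 positive without the 6-hour sample. The number of probe sets on the array that passed ranged from 0 to 3, the 3 being Ttr, Syt11 and Mobp without the 2-hour sample, named after their values were seen. For Mobp this was 1 of 4 probe sets, with 322, 1802, 980 and 2031, lowest in the 1-hour sample. The brightest Mobp probe set had 11695, 8172, 9384 and 10648, highest in the 1-hour sample. The remaining ones had 480 and 1500 in the 1-hour sample, their lowest. Landmarks with a 2-fold range numbered 0 to 1 when a sample was left out (0 without the 2-hour sample) and 2 on the values as deposited, where the brighter Tcf7l2 probe set joined Lef1. All tested probe sets with such a range numbered 1331, from 667 (without the 1-hour sample) to 1032 with a sample left out and normalized anew, and 3433 of 12422 with no filter. Of 574 other landmark ranges and differences 28 moved by more than 1 SD. Changes of sign were counted only for differences past 2-fold. The only such landmark difference, Lef1 in the 2-hour sample, kept its sign, and smaller differences were not counted for this. Signals near the floor limit Pcp4, Prox1 and the dimmer Lef1 probe set.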

Other observations

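The order of the samples was the same (4-hour highest, then 6-, 2- and 1-hour) for Pou3f1, a CA1 landmark, and for the brighter Tcf7l2 probe set, a thalamic one, and their centred log2 values differed by a root mean square of 0.20. Wfs1 and Rgs14 differed least among the tested landmark pairs, by 0.15. Ttr, the thyroid hormone carrier of the choroid plexus, had 2246, 199, 353 and 143 at 1, 2, 4 and 6 hours. Its log2 range was 3.97 over the 4 samples and 1.32 without the 1-hour sample. Of the other choroid plexus genes, Calml4, a calmodulin-like protein, had 228, 62.8, 86.5 and 142 in the same order, and Igfbp2, which binds insulin-like growth factors, had 465, 531, 597 and 358. Kl had 263, 175, 172 and 252. The brighter Folr1 probe set, below the level for tests, had 113, 55.9, 44.7 and 41.1. In the 1-hour sample all 4 tested genes of this list lay above the mean of the other 3 (median 0.91), Igfbp2 by 0.004, against 54.7% of all tested probe sets. The summed signal of the list was 3316, 1023, 1253 and 936. Of the astrocyte genes, Aqp4, a water channel, had 1233.5, 1570.4, 1118 and 1127, and Aldoc, a glycolytic aldolase, had 11024, 12442, 10462 and 10948.5. The summed signal of the CA1 list was 5249.8, 4931, 5404 and 4609.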
